A study of Mus musculus with 2 samples.

Results

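The genes described here are those of the mitochondrial genome and of the machinery that copies, transcribes and translates it. They were chosen by name, as the rows beginning mt-, Mrpl or Mrps together with 14 named factors (Tfam, Tfb1m, Tfb2m, Polrmt, Mterf1a, Polg, Polg2, Ssbp1, Lrpprc, Slirp, Top1mt, Tufm, Tsfm and Gfm1). The rule found 105 of the 34745 rows. Of these, 104 reached 1 CPM (counts relative to the scaled library total) in at least 1 library, among 13464 rows of any kind that did. They were 13 mitochondrially encoded genes, 48 Mrpl genes, 29 Mrps genes and the 14 factors. The row left out, Mrps36-ps3, had 0 counts in both libraries, and the lowest row kept was Mrps36 at 2.43 CPM in wild type and 2.27 CPM in knockout. The mt- rows were the 13 protein-coding genes, and the ribosomal and transfer RNA genes of the mitochondrial genome were not analysed here.

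RNA came from CD4+Foxp3+ regulatory T (Treg) cells sorted by YFP from the spleen of C57BL/6 mice aged 2 weeks. The wild-type library came from poh1+/+ Foxp3Cre+ mice and the knockout library from poh1fl/fl Foxp3Cre+ mice, so both carried the Cre allele, which acts in cells that express Foxp3. POH1 is the protein of Psmd14, a deubiquitinase of the proteasome lid, and the study asked how its loss changes the RNA of Treg cells. There was 1 library per genotype, and the sources used here do not say whether it held RNA of 1 mouse or of several. With 1 library per genotype there is no replicate check and no p-value. Ranges in parentheses are 95% counting intervals (exact, Clopper-Pearson), and a gene was called higher or lower where its interval lay wholly beyond 1.5-fold. The intervals cover counting error only, not the spread between libraries of a genotype. The reads carried no molecular identifiers and cannot be taken as separate molecules. The intervals may therefore be too narrow even for counting error.

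The mammalian mitochondrial genome is a small circle that encodes core subunits of respiratory complexes I, III and IV and of ATP synthase (complex V), with its own ribosomal and transfer RNAs. The proteins that copy, transcribe and translate it are encoded in the nucleus and imported, including the polymerases POLG and POLRMT, the packaging and transcription factor TFAM and all proteins of the mitochondrial ribosome. Both strands are transcribed as long precursors, which are cut into separate RNAs. Treg cells are known to draw strongly on oxidative phosphorylation.

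Libraries held 18124611 wild-type and 14544212 knockout counts. Psmd14 stood at 89.4 CPM in wild type and 31.8 CPM in knockout, the direction its label gives. Of 7 Treg and T cell markers 2 were called higher (Foxp3 at 671 and 1073 CPM, Il2ra at 990 and 1530.0 CPM) and 2 lower (Ctla4 at 1120 and 703 CPM, Ikzf2 at 825 and 526 CPM). The other 3 were Cd4 at 688 and 724 CPM, Cd3e at 318 and 308 CPM and Cd3g at 368 and 289 CPM. The B cell markers were called lower in 6 of 6 genes (summed level 135 against 36.4 CPM, wild type first), the erythroid markers in 6 of 6 (81.4 against 20.6 CPM) and the neutrophil markers in 3 of 4 measured (15.7 against 5.50 CPM, S100a8 at 0 in the knockout library and Elane in both). Dendritic cell markers summed to 27.7 against 21.6 CPM (3 of 5 called lower, Xcr1 at 0 in the knockout library) and stromal and endothelial markers to 4.86 against 0.825 CPM (2 of 3 called lower, Col3a1 and Pdgfra at 0 in both). CD8 T cell markers were called higher in 2 of 2 genes (18.8 against 47.4 CPM) and monocyte and macrophage markers in 1 of 6 (132 against 173 CPM). NK cell markers summed to 1.16 against 0.825 CPM (Klre1 and Klra8 at 0 in both, Ncr1 in the knockout library) and platelet markers to 2.87 against 4.12 CPM (Pf4 and Ppbp at 0 in both, Gp9 in the wild-type library). The part of other cells in the results on mitochondrial genes was not tested.

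The genome is compact, and 3 features of its sequence help in reading the values. The first is overlap between genes: mt-Atp8 (chrM:7766-7969, plus strand, mm10) shares its last 43 bases, in capitals, with the start of mt-Atp6.
mt-Atp8: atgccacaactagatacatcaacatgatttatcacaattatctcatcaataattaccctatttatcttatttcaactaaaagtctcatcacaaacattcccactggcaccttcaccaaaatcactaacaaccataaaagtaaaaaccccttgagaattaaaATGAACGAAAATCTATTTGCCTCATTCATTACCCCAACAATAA

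The second is that 3 of the 13 mRNA genes, mt-Co3, mt-Nd4 and mt-Cytb, end in a single T after the last whole codon (in capitals), and the stop codon is completed by the poly(A) tail. Their last 30 bases, at chrM:9361-9390, chrM:11515-11544 and chrM:15259-15288 on the plus strand of mm10, are shown to make this visible.
mt-Co3 end: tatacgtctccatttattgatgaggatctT
mt-Nd4 end: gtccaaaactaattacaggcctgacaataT
mt-Cytb end: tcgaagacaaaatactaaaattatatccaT

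The third is a copy in the nuclear genome. A stretch of chromosome 1 from 24611535 to 24616197 (4663 bases, mm10) holds copies of 7 of the mRNA genes on its minus strand. These are the copies found among annotated transcripts, and all are annotated as pseudogenes. Over 4140 aligned bases there were 2 differences, and 5 of the 7 copies matched their gene without any. The differences, with the mitochondrial base first and positions counted from 1 at the gene's first base, were A1066T between mt-Co1 and Gm29216 and T3C between mt-Nd3 and Gm28438. The 40-base windows show the differing base in capitals, from chrM:6390-6429 (plus strand) beside chr1:24616149-24616188 (minus strand) and from chrM:9459-9498 (plus strand) beside chr1:24613080-24613119 (minus strand).
mt-Co1 window: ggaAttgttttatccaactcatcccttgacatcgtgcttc
Gm29216 window: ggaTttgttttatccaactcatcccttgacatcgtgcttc
mt-Nd3 window: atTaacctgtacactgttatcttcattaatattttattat
Gm28438 window: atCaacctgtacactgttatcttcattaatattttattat

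Every one of the 13 mitochondrially encoded mRNAs stood lower in the knockout library, at 58.2% to 70.7% of its wild-type level, and all 13 intervals lay wholly below a ratio of 1, as did those of 35.3% of all measured genes (34.3% lay wholly above it). The 1.5-fold rule called 8 of them lower and 0 higher, where it called 12.3% of all measured genes lower and 9.58% higher. With a 2-fold limit 0 of the 13 were called, beside 6.63% of all measured genes lower and 4.34% higher, and with a limit midway between 1 and 1.5-fold 13 were, beside 19.5% lower and 16.7% higher. Their median log2 ratio (knockout over wild type) was -0.66, against -0.01 over all 13464 measured genes. Together the 13 rows took 628410 counts in wild type and 314713 in knockout. That is a share of 3.47% (3.46% to 3.48%) against 2.16% (2.16% to 2.17%), 1.60-fold lower in the knockout library. In bulk samples, fewer cells of a type and less RNA per cell cannot be told apart.

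Complex I, the NADH dehydrogenase at the entry of the chain, has 7 mitochondrially encoded subunits, and 3 of them were called lower. Levels between genes are given as FPKM, the deposited value per length and library total. mt-Nd2 stood at 1394 FPKM in wild type and 838 FPKM in knockout, at 60.1% of the wild-type CPM (58.8% to 61.4%). mt-Nd4l stood at 1055 and 670 FPKM (63.4%, 60.6% to 66.4%) and mt-Nd4 at 1729 and 1113 FPKM (64.4%, 63.3% to 65.4%). These are the 3 called, and all 7 genes encode membrane subunits of the proton-pumping arm. mt-Nd5 stood at 1387 and 918 FPKM (66.1%, 65.1% to 67.2%), with an interval that crosses the 1.5-fold line. mt-Nd1 stood at 2436 and 1699 FPKM (69.7%, 68.6% to 70.8%). mt-Nd3, which had the fewest counts of the 13 at 883 and 489, stood at 140 and 96.6 FPKM (69.0%, 61.6% to 77.1%).

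mt-Nd6 is the one mRNA gene read from the other strand (chromosome M from 13552 to 14070, minus strand). It stood at 924 FPKM in wild type and 654 FPKM in knockout, the highest ratio of the 13 at 70.7% (68.3% to 73.2%). That interval overlaps those of mt-Nd1 and mt-Nd3, so the 3 cannot be put in order. The kit does not mark strand, so reads of mt-Nd6 and antisense reads over it were counted together.

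mt-Cytb, the only mitochondrially encoded subunit of complex III, was among the lowest ratios. It stood at 3021 FPKM in wild type and 1774 FPKM in knockout, at 58.7% (57.9% to 59.5%). The 3 complex IV genes encode the catalytic core of cytochrome c oxidase. mt-Co1 had the most counts of the 13, with 265591 in wild type and 130839 in knockout, and stood at 9485 and 5823 FPKM (61.4%, 60.9% to 61.8%). mt-Co3 stood at 2420 and 1452 FPKM (60.0%, 58.9% to 61.1%). mt-Co2 stood at 2666 and 1755 FPKM (65.8%, 64.6% to 67.0%), and its interval just crossed the 1.5-fold line.

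Both complex V genes were called lower, and they lie on a shared transcript. mt-Atp8 stood at 4368 FPKM in wild type and 2544 FPKM in knockout, the lowest ratio of the 13 at 58.2% (56.6% to 59.8%). Its interval overlaps those of mt-Cytb, mt-Co3 and mt-Nd2, so mt-Atp8 cannot be placed below them. mt-Atp6 stood at 3550 and 2170 FPKM (61.1%, 60.1% to 62.1%). By complex, the median log2 ratio was -0.60 for the 7 complex I genes, -0.77 for mt-Cytb, -0.70 for the 3 complex IV genes and -0.75 for the 2 complex V genes. The order of the levels was nearly the same in both libraries: mt-Co1, mt-Atp8, mt-Atp6 and mt-Cytb led, mt-Nd3 came last, and only mt-Nd2 and mt-Nd5 changed places.

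**Figure D1:**
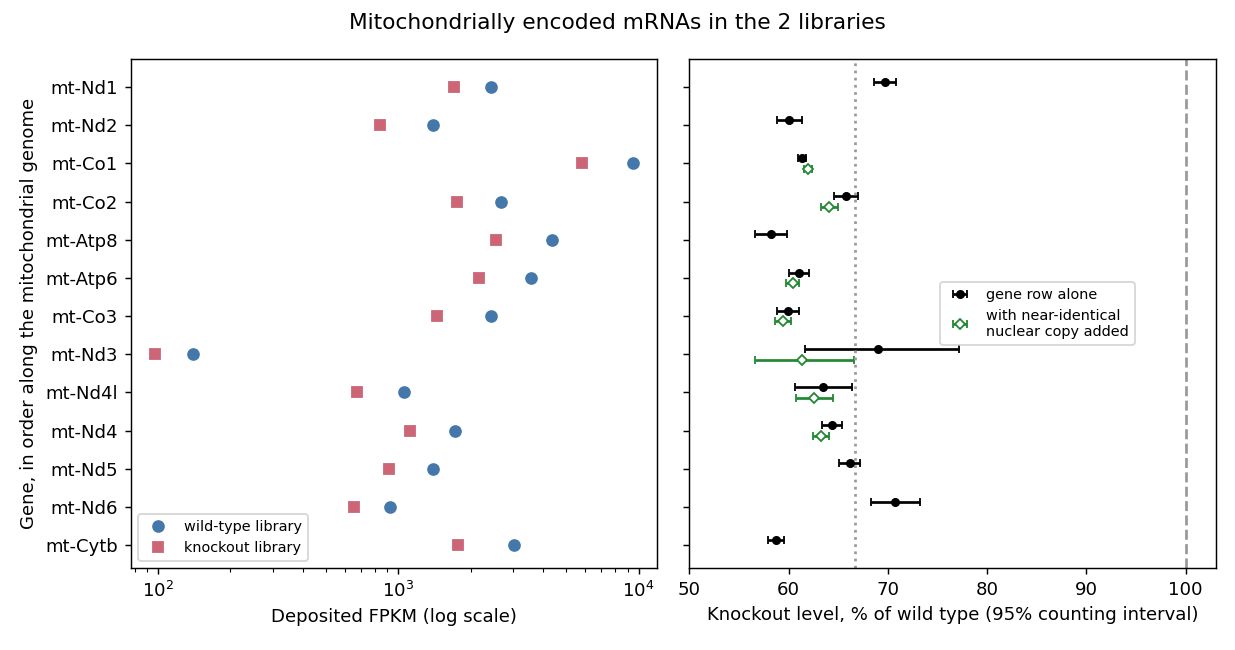
The left panel plots deposited FPKM (log scale) of each mitochondrially encoded mRNA in the wild-type (circles) and knockout (squares) library. The right panel plots the knockout level as a percent of wild type with its 95% counting interval, for the gene row alone (filled) and with its near-identical nuclear copy added (open diamonds); the dashed line marks equality and the dotted line 1.5-fold. All 13 genes sit between 58.2% and 70.7%.

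The copies on chromosome 1 had taken a large number of reads. The 7 copies held 169660 counts in wild type and 83848 in knockout, or 0.936% and 0.577% of all counts. Gm28661 had 30933 and 15464 counts, close to the 33045 and 17461 of mt-Co2, of which it matches 681 of 684 bases. Gm28437 had 33767 and 15983 counts beside 34384 and 16557 for mt-Co3. Gm10925 had more than its gene, with 56205 and 27034 counts beside 43818 and 21488 for mt-Atp6, and Gm10222 likewise, with 7282 and 3618 beside 5677 and 2892 for mt-Nd4l. Reads that match both places cannot be assigned from sequence, and the sources used here do not give how such reads were counted.

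The knockout level of the 7 copies on chromosome 1 ranged from 54.1% to 71.1% of wild type, and it was below the wild-type level in 7 of 7. Gm28438, the copy of mt-Nd3, was at 54.1% (48.0% to 60.9%), below mt-Nd3 itself. Gm29216, which covers 483 of the 1545 bases of mt-Co1, was at 71.1% (69.4% to 72.9%), above mt-Co1. With the counts of these 7 copies added to their genes, the share of the mitochondrial mRNAs was 4.40% in wild type and 2.74% in knockout, 1.61-fold lower. The number called lower became 10 of 13, with mt-Co2 and mt-Nd3 added, and the median log2 ratio -0.69. The summed knockout share was 0.634 of the wild-type share over the 6 genes for which no such copy was found. It was 0.619 over the 7 genes with a copy. Among those 6, mt-Atp8 lies between mt-Co2 and mt-Atp6, whose copies both lie in the chromosome 1 stretch. That group may therefore not be free of copies. Adding the copies moved levels more than ratios: on the FPKM scale of the gene's own length, mt-Atp6 went from 3550 to 8104 in the wild-type library. The order of levels between the mitochondrial genes therefore depends on the copies.

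**Figure D2:**
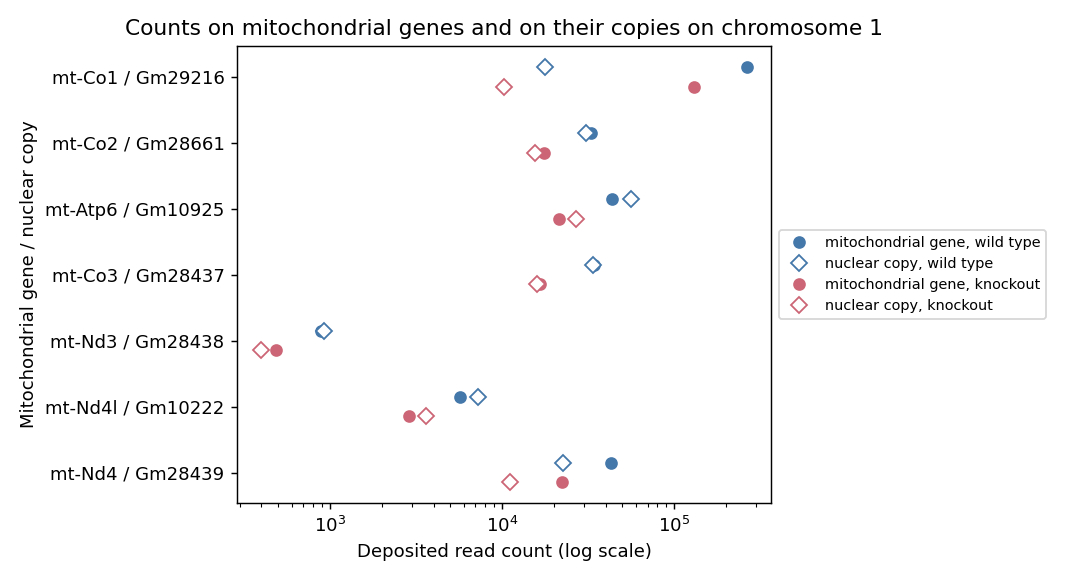
Deposited read counts (log scale) on 7 mitochondrial genes (filled circles) and on their near-identical copies on chromosome 1 (open diamonds), in the wild-type (blue) and knockout (red) library. Gm28661 and Gm28437 sit close to mt-Co2 and mt-Co3, and each of the 14 knockout values lies to the left of its wild-type value.

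Nuclear members did not share this shift as a group. The 91 nuclear members had a median log2 ratio of -0.08. This gave a difference of -0.58 (mitochondrial minus nuclear median), and this difference does not depend on the scaling between libraries. The rule called 5 of the 91 lower and 1 higher, a smaller share in both directions than the 12.3% and 9.58% of all measured genes. Of the 91, 13 had a ratio below the highest of the mitochondrial mRNAs (mt-Nd6), as did 22.6% of all measured genes, and 7 had a ratio below the lowest (mt-Atp8).

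The same contrast was seen inside the respiratory complexes, where subunits from both genomes are assembled together. For complex I, 37 nuclear genes with Nduf names summed to 1190.0 CPM in wild type and 1226 CPM in knockout. They include Ndufa4 (41.1 and 34.8 CPM), whose protein is assigned to complex IV. The mitochondrial subunits of complex I summed to 9536 and 6275 CPM. Mitochondrial counts per nuclear count were thus 8.01 in wild type and 5.12 in knockout for complex I. For complex III the nuclear sum was 669 and 670 CPM (9 genes), and mitochondrial counts per nuclear count were 5.17 and 3.03. For complex IV the nuclear sum was 517 and 498 CPM (10 genes), and the quotient was 35.6 and 22.8. For complex V the nuclear sum was lower too, at 2327 and 1814 CPM over 16 genes, led by Atp5b at 778 and 592 CPM and Atp5a1 at 685 and 484 CPM. Its quotient was 1.42 and 1.10. The quotients leave out the copies on chromosome 1, with which mt-Atp6 had 100023 counts in wild type in place of 43818. For complexes I, IV and V the quotients therefore depend on how reads were split with the copies. Copies of the nuclear subunit genes were not searched for, so every quotient may carry a like limit.

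Large-subunit proteins of the mitochondrial ribosome (Mrpl) build the side of the particle where amino acids are joined. Of the 48 measured, 1 was called lower and 0 higher, beside 12.3% and 9.58% of all measured genes. The median log2 ratio was -0.07, and 28 had a ratio below 1, beside 50.4% of all measured genes. The 48 Mrpl genes together took 0.131% of counts in the wild-type (0.130% to 0.133%) and 0.123% in the knockout library (0.121% to 0.125%). Mrpl42 (chromosome 10 from 95480805 to 95501940, minus strand), the one called, had the highest FPKM of the Mrpl genes in the wild-type library, while in the knockout library Mrpl32 (37.2 FPKM), Mrpl4, Mrpl43 and Mrpl24 (28.3 FPKM) stood above it. The length implied by its deposited values was 666 bases, against 3682 exon bases in GENCODE M21, so its place among the genes depends on that length. It had 597 counts, or 49.5 FPKM, in wild type and 267 counts, or 27.6 FPKM, in knockout, 1.80-fold lower (1.55 to 2.08). Its exons overlap no other gene in the GENCODE M21 annotation.

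The next lowest were Mrpl54, with 409 and 186 counts (ratio 0.566, 0.474 to 0.675), Mrpl12, with 766 and 379 (0.616, 0.543 to 0.698), and Mrpl13, with 688 and 350 (0.634, 0.555 to 0.722). None of these 3 passed the rule. MRPL12, a stalk protein of the ribosome, is also known to bind the mitochondrial RNA polymerase. At the other end, Mrpl47 had 143 counts in wild type and 206 in knockout (ratio 1.79, 1.44 to 2.24), and 24.2% of its exon length overlaps other genes, Ndufb5 first. Mrpl30 had 655 and 799 counts (1.52, 1.37 to 1.69), Mrpl48 had 296 and 314 (1.32, 1.12 to 1.55) and Mrpl2 had 219 and 217 (1.23, lower bound 1.02). The other 2 of the 3 most abundant per length, by the mean of both libraries, lay close to or below the wild-type level: Mrpl4 stood at 45.7 and 35.8 FPKM (ratio 0.782, 0.709 to 0.863) and Mrpl43 at 36.9 and 35.8 FPKM (0.968, 0.871 to 1.08).

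Small-subunit proteins (Mrps) form the side that reads the mRNA. Of the 29 measured, 2 were called lower and 0 higher, beside 12.3% and 9.58% of all measured genes. The median log2 ratio was -0.10, and 19 had a ratio below 1, beside 50.4% of all measured genes. The 29 Mrps genes together took 0.0715% of counts in the wild-type (0.0702% to 0.0727%) and 0.0653% in the knockout library (0.0640% to 0.0667%). Mrps25 had 751 counts in wild type and 252 in knockout, 2.39-fold lower (2.07 to 2.77). Of its exon length (chromosome 6 from 92169525 to 92184033, minus strand), 69.8% lies over Nr2c2 on the other strand, which was 1.61-fold higher in the knockout library (1.53 to 1.70), so its reads cannot be fully told apart from those of Nr2c2. Mrps6 had 462 and 198 counts, 1.87-fold lower (1.58 to 2.22), with 19.9% of its exon length shared with other genes (chromosome 16 from 92058270 to 92112227, plus strand). Without the 8 Mrps genes that share 10% or more of their exon length, 0 of 21 were called, and the median log2 ratio was -0.07.

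Mrps28, whose exons overlap no other gene, had 203 and 93 counts (ratio 0.571, 0.442 to 0.733) and Mrps5 had 809 and 475 (0.731, 0.652 to 0.820). The highest ratios were those of Mrps17 (280 and 287 counts, 1.28, 1.08 to 1.51), Mrps22 (289 and 291, 15.9 and 20.0 CPM), Mrps23 (516 and 511, 1.23, 1.09 to 1.40) and Mrps34 (420 and 409, 1.21, 1.06 to 1.39). Mrps34 shares 77.8% of its exon length with other genes, Mapk8ip3 first. The most abundant per length, by the mean of both libraries, was Mrps30, at 31.6 and 28.7 FPKM (0.907, 0.820 to 1.00). Mrps16 followed at 29.1 and 25.1 FPKM (0.862, 0.719 to 1.03), then Mrps6 at 24.2 and 12.9 FPKM. The deposited values imply 1590 bases for Mrps30 and 566 for Mrps16, against 6666 and 2875 exon bases in GENCODE M21. Their places among the genes therefore depend on those lengths. Over both subunits, 19 of 77 intervals lay wholly below 1 and 10 wholly above it, a smaller share in both directions than the 35.3% and 34.3% of all measured genes. Split by name, the 44 proteins numbered after a bacterial homologue (up to 36 in the large and 21 in the small subunit) had a median log2 ratio of -0.10 with 1 called lower, and the other 33, largely particular to mitochondria, -0.03 with 2 called lower.

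**Figure D3:**
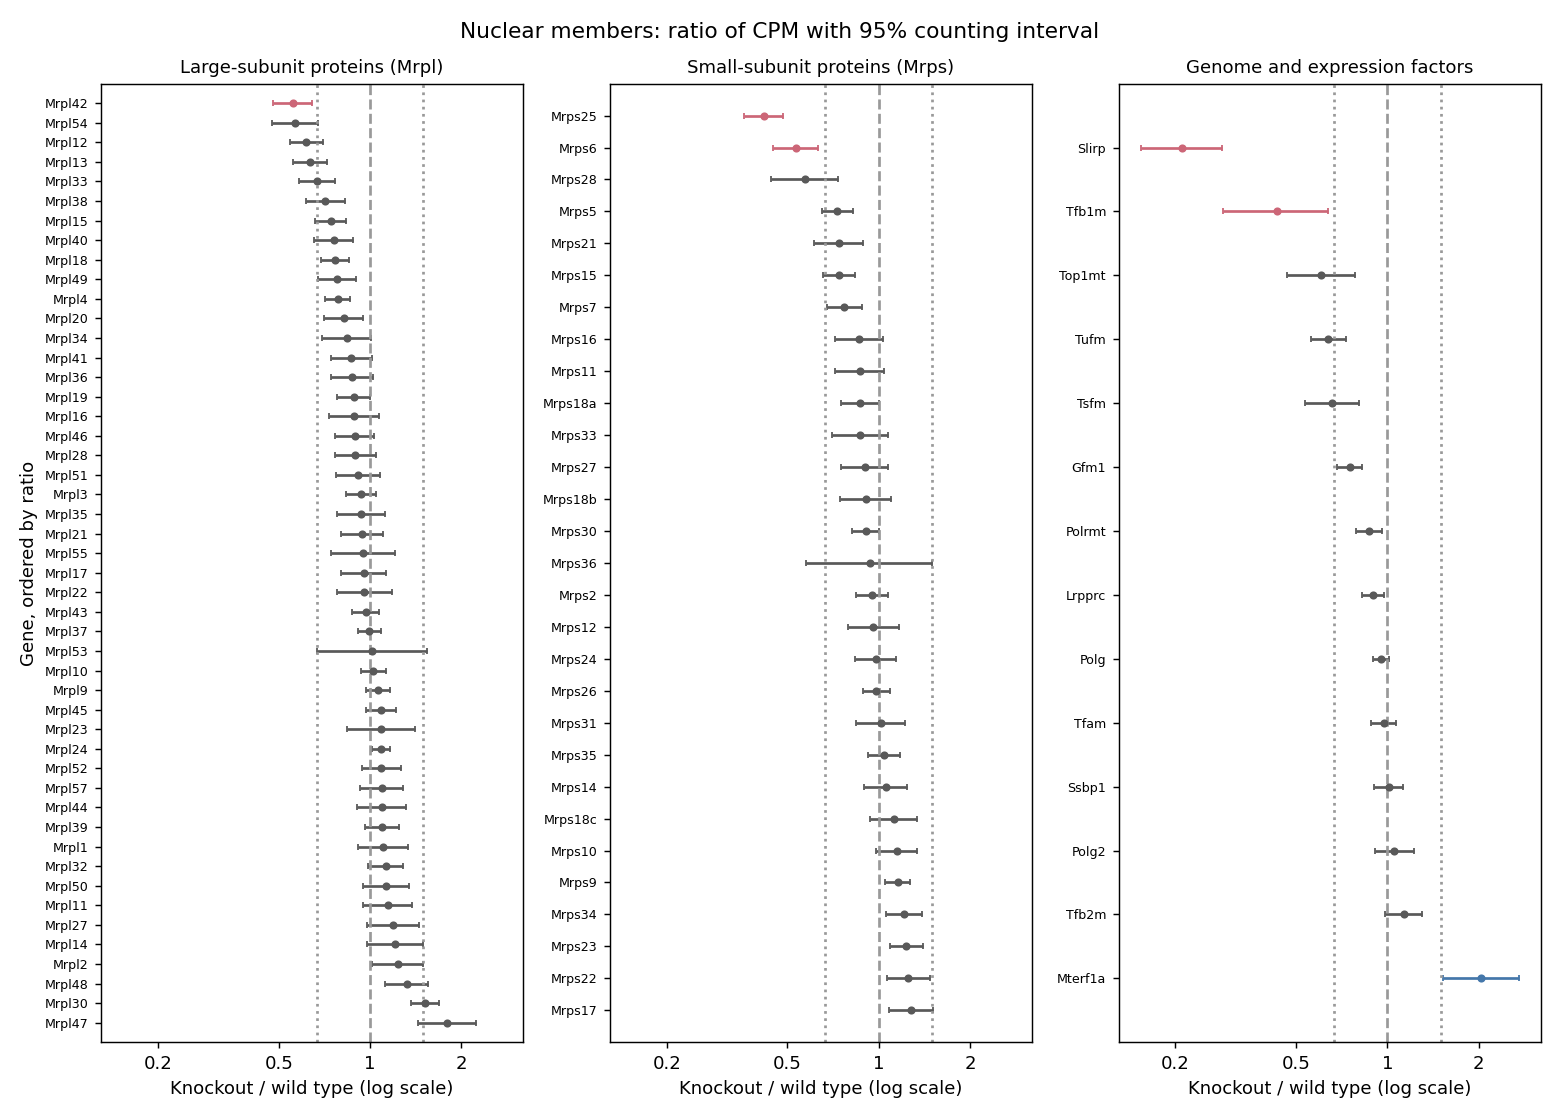
Ratio of knockout to wild-type CPM (log scale) with its 95% counting interval for the 48 Mrpl genes, the 29 Mrps genes and the 14 factors, ordered by ratio. The dashed line marks 1 and the dotted lines 1.5-fold; red genes were called lower (Mrpl42, Mrps25, Mrps6, Slirp, Tfb1m) and the blue gene higher (Mterf1a).

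Among the 14 factors, 2 were called lower and 1 higher, the median log2 ratio was -0.18, and 10 had a ratio below 1. Of all measured genes, 12.3% were called lower and 9.58% higher, and 50.4% had a ratio below 1. The calls among the factors were near those shares. The 2 factors that stabilise mitochondrial mRNA, Lrpprc and Slirp, bind each other and hold mRNAs ready for polyadenylation and translation. Slirp had 301 counts, or 16.6 CPM, in wild type and 51 counts, or 3.51 CPM, in knockout, 4.74-fold lower (3.51 to 6.51), the lowest ratio of all members. Its count has a limit: 97.8% of its exon length (chromosome 12 from 87443896 to 87452206, plus strand) lies over other genes, most of it over Snw1 on the other strand. Snw1 had 2223 and 2080 counts, a ratio of 1.17 (1.10 to 1.24), on the other side of 1, and the reads of the shared stretch cannot be split by strand. Lrpprc, whose exons overlap no other gene, stood at 74.0 CPM in wild type and 66.3 CPM in knockout (ratio 0.896, 0.824 to 0.974).

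The 5 factors of mitochondrial transcription had a median log2 ratio of -0.04, with ratios from 0.606 to 2.03. Tfam, which packages the genome and opens its promoters, had 1000 counts in wild type and 782 in knockout, or 55.2 and 53.8 CPM (ratio 0.974, 0.886 to 1.07). Polrmt, the RNA polymerase, stood at 52.8 and 45.9 CPM (0.870, 0.787 to 0.962). Tfb2m, which melts the promoter with POLRMT, stood at 23.3 and 26.4 CPM (1.13, 0.982 to 1.30), and a near-identical gene model, Gm1818, held a further 174 and 146 counts. Top1mt, the mitochondrial topoisomerase, had 189 and 92 counts (0.606, 0.467 to 0.782). The 1 called was Mterf1a, a termination factor that binds downstream of the ribosomal RNA genes (chromosome 5 from 3890581 to 3893933, minus strand). It had 81 counts in wild type and 132 in knockout, 2.03-fold higher (1.53 to 2.71), while its near-identical neighbour in sequence, Mterf1b, had 54 and 34 (ratio 0.784, 0.495 to 1.23), so the split of reads between them is uncertain.

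The 3 replication factors had a median log2 ratio of 0.01, and all their intervals included 1. Polg, the catalytic subunit of the DNA polymerase, stood at 136 CPM in wild type and 130 CPM in knockout (ratio 0.955, 0.899 to 1.01). Polg2, its accessory subunit, stood at 22.3 and 23.5 CPM (1.05, 0.910 to 1.22), and Ssbp1, which coats single-stranded mitochondrial DNA, at 38.9 and 39.2 CPM (1.01, 0.903 to 1.13).

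All 4 factors of translation had intervals wholly below 1, as did 35.3% of all measured genes, and their median log2 ratio was -0.62. Tfb1m, which methylates the small ribosomal RNA, had 104 counts in wild type and 36 in knockout, 2.32-fold lower (1.57 to 3.49), and was the one called (chromosome 17 from 3519256 to 3557781, minus strand). Tufm, the elongation factor that brings transfer RNAs to the ribosome, stood at 36.1 and 23.1 CPM (ratio 0.639, 0.558 to 0.730). A near-identical gene model, Gm9755, held 698 and 377 counts beside the 655 and 336 of Tufm. Tsfm, which recycles TUFM, stood at 15.3 and 10.1 CPM (0.659, 0.536 to 0.807), and Gfm1, which moves the ribosome along, at 64.8 and 48.7 CPM (0.752, 0.684 to 0.826).

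Few other genes of the pathway were called. Across 14 lists of mitochondrial genes outside the members' rule (Tfb1m and Mrpl57 are on both), 4 of 227 genes were called higher and 4 lower, beside 9.58% and 12.3% of all measured genes. The 29 genes of mitochondrial RNA processing, modification and decay had a median log2 ratio of 0.12 with 0 called, from Rnmtl1 (86 and 34 counts, ratio 0.492, 0.321 to 0.740) to Trmu (196 and 226, 1.44, 1.18 to 1.75). The 19 other translation factors had a median of 0.05 with 0 called, and the 5 other transcription factors 0.07 with 0 called. Among 22 assembly factors of the mitochondrial ribosome the median was 0.01, or -0.01 to 0.05 over the scalings tried, and besides Tfb1m only Noa1, a GTPase of small-subunit assembly, was called lower, at 45.7 and 23.6 CPM (1.93-fold).

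Genes of mitochondrial DNA replication and nucleotide supply were called in both directions. Of 14, Exog, a mitochondrial nuclease, was called higher at 10.3 and 20.1 CPM (ratio 1.95, 1.62 to 2.36), as was Slc25a36, a pyrimidine nucleotide carrier, at 73.6 and 127 CPM (1.72, 1.60 to 1.85). The related carrier Slc25a33 was called lower at 7.67 and 3.37 CPM (2.28-fold). Of 19 aminoacyl-tRNA synthetases, which charge the mitochondrial transfer RNAs, Pars2 was called higher at 2.87 and 7.70 CPM (2.68, 1.91 to 3.80), and the median of the list was -0.10.

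The lists of import and mass, of proteases and chaperones and of biogenesis regulators had medians below 0. These medians lay between the quartiles of all measured genes (-0.44 and 0.39). Mitochondrial mass itself was not measured. The 22 genes of import and mitochondrial mass had a median log2 ratio of -0.21 with 0 called. Among 14 proteases and chaperones the median was -0.22, and Hspd1, the matrix chaperonin, was called lower at 244 and 132 CPM (1.85-fold). Its partner Hspe1 stood at 56.1 and 35.3 CPM (ratio 0.629, 0.565 to 0.701). The 9 measured regulators of biogenesis had a median of -0.16 with 0 called; Gabpa stood at 139 and 111 CPM and Nrf1 at 49.8 and 40.5 CPM. Nuclear subunits of complexes III, IV and V had 0 called (medians -0.06, 0.11 and -0.19). Of the 37 genes listed for complex I, Ndufa6 was called higher at 29.4 and 56.2 CPM (1.91, 1.71 to 2.13). The 36 cytosolic ribosomal proteins, listed for comparison, had a median of 0.02 with Rpsa called lower.

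**Figure D4:**
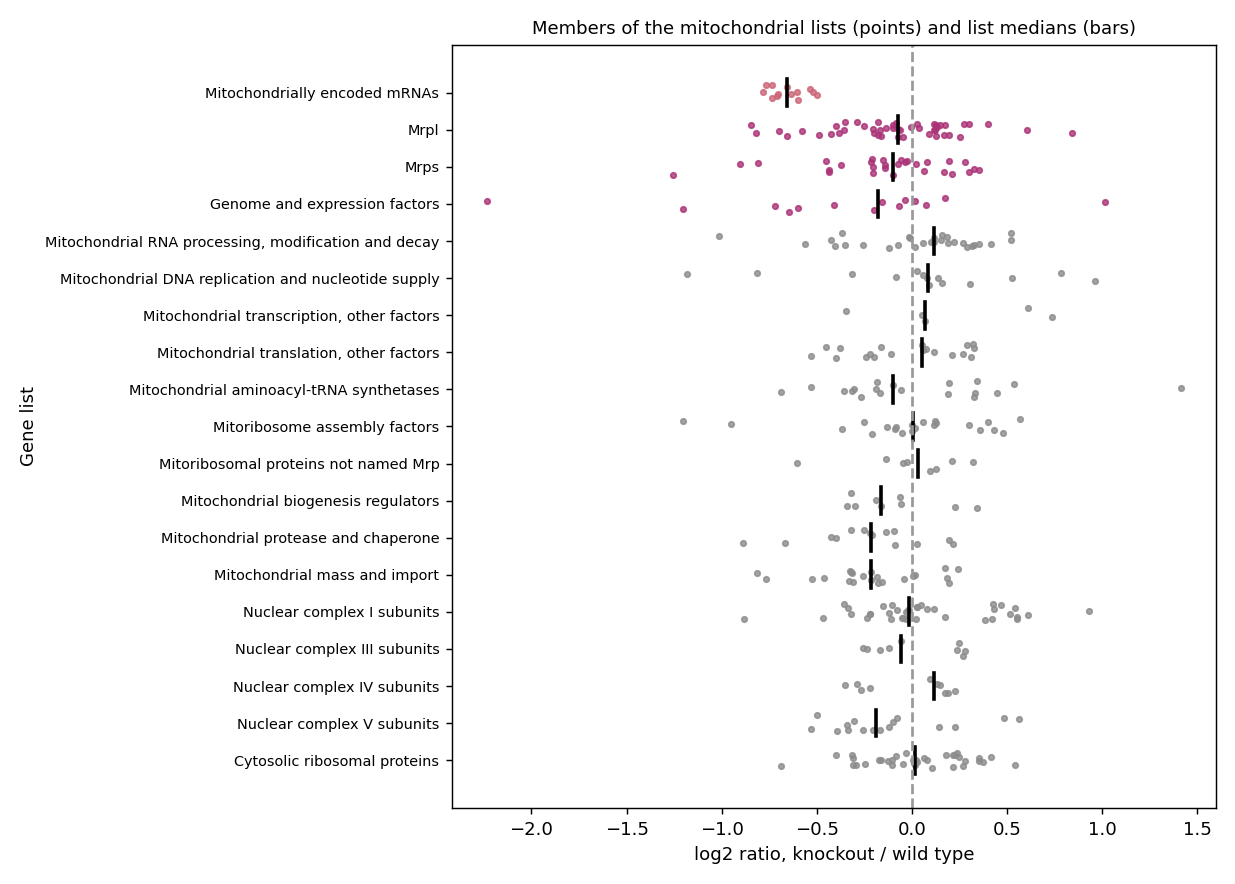
Each point is 1 gene's log2 ratio of knockout to wild type, by list, and each black bar the list's median; the dashed line marks no difference. The mitochondrially encoded mRNAs (red, -0.78 to -0.50) lie to the left of the medians of every other list, which run from -0.22 to 0.12.

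Promoters of the nuclear members were examined for motifs of factors known to act on such genes. RefSeq sequence (GRCm38.p6) of 250 bases before the start was found for 81 of the 91. The ETS motif CCGGAAG, the core bound by GABP, was present on either strand in 24 of 81 (29.6%), against 1526 of the 9528 measured genes with such sequence and 7.83% of all 27025 genes with it. The NRF1 motif (GCGCA, any base, GCGC) was present in 12.3% of members, against 9.34% of measured genes, and the E-box CACGTG in 6.17%, against 9.76%. The motifs rarely fell in the same promoter: 1 member held the ETS and NRF1 motifs and 1 the ETS motif and the E-box. Among the factors 7 of 13 held the ETS motif. Of the 6 nuclear members called, Slirp and Mterf1a held it, and these were called in opposite directions. Both calls have the limits given above, exon overlap for Slirp and the near-identical Mterf1b for Mterf1a.

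The windows of 30 bases upstream of the RefSeq start that hold the match, in capitals, are shown for the 2 called members and for Tfam and Polrmt, which were not called. CTTCCGG is the same motif on the other strand. Positions are chr12:87443866-87443895 (plus strand) for Slirp, chr5:3893939-3893968 (minus strand) for Mterf1a, chr10:71238073-71238102 (minus strand) for Tfam and chr10:79746606-79746635 (minus strand) for Polrmt. The Tfam window lies inside the gene as GENCODE M21 gives it (chromosome 10 from 71225464 to 71238280), since the starts differ between the annotations. A match describes the letters in the window and shows no binding.
Slirp upstream: attccggctctggcaggttCTTCCGGggtc
Mterf1a upstream: ccaggccgaggCCGGAAGtcagccgttact
Tfam upstream: cctgccgcggaCCGGAAGtccgggcttccc
Polrmt upstream: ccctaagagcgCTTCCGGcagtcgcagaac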

How the data were processed

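RNA of sorted Treg cells was sequenced on an Illumina HiSeq instrument from libraries of the TruSeq RNA v2 kit, per the labels' protocols. TopHat, HTSeq and mm10 are named in the submitters' processing notes. The sources used here do not give versions, annotation or the handling of reads that match more than 1 place. Each deposited table gives a read count and an FPKM value per gene name, per the file headers. The deposited FPKM values were used to compare levels between genes, and the counts for everything else.

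Counts were scaled with TMM factors (edgeR 4.0.16, R 4.3.3), which moved the ratio between libraries by -0.000839 on the log2 scale against plain totals; shares use plain totals. The ratio of each gene has an exact conditional-binomial interval, and 0.5 counts were added in proportion to library size for log2 ratios. A gene counted as measured if either library reached 1 CPM. Intervals were tested on simulated counts that held counting error only. That test cannot show the effect of reads that are not separate molecules or of spread between libraries. Near-identical copies were found with BLAST 2.17.0 in GENCODE M21 transcripts (at least 99% identity over 200 bases for mitochondrial and 95% for nuclear genes), and exon overlap, regardless of strand, in the same annotation, matched by symbol.

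Members and lists were chosen with earlier results of these data known. Named are every mitochondrial mRNA and factor, the Mrpl and Mrps genes that were called, the 4 highest, the 4 lowest and the 3 most abundant per length of each subunit, and members at the ends of lists.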

Additional observations from a re-analysis of the deposited data

How the results depend on the processing

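Of 138 recomputed values under other settings, 120 stayed within the limits set for a like value, and 18 moved. Some of the 138 could not change. The fold limit for a call does not enter a median ratio, and the 13 mitochondrial mRNAs alone are already all the mt- rows. The number that stayed is therefore no measure of stability. The median log2 ratio over the pathway lists, -0.03, changed sign under upper-quartile scaling (0.01). No other median among the 138 values changed sign. With an interval beyond 2-fold, the number lower was 0 for mitochondrial mRNAs, 0 for Mrpl, 1 for Mrps (Mrps25), 1 for the factors (Slirp) and 0 for the pathway lists, and the number higher 0 for the factors and 0 for the lists. With a limit midway between 1 and 1.5-fold, the number lower was 13 for mitochondrial mRNAs, 5 for Mrpl, 4 for the factors and 19 for the lists, and the number higher 2 for Mrpl and 10 for the lists. All measured genes were then called lower in 6.63% and 19.5%, and higher in 4.34% and 16.7%. Upper-quartile scaling gave a median log2 ratio of -0.62 for the mitochondrial mRNAs and dropped the calls of mt-Nd4 and mt-Nd4l. Totals without the mitochondrial genes added calls for mt-Nd5, mt-Co2 and Mrpl54, giving 2 Mrpl genes lower. Among single lists, the medians of complex I subunits, mitoribosome assembly factors and cytosolic ribosomal proteins changed sign with the scaling.

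Settings chosen after seeing the data were the addition of nuclear copies (median log2 ratio -0.69 for the mitochondrial mRNAs) and leaving out members that share 10% or more of their exon length, after which 0 Mrps genes and 1 factor (Tfb1m) were lower. The alternatives for mitochondrial ribosomal and transfer RNAs were not run, since those genes were not analysed here. No paired analysis was possible because each genotype has 1 library. That number, not depth, limits the abundant mitochondrial mRNAs; for Tfb1m, Mterf1a and Slirp, with 36 to 301 counts, depth limits the ratio too.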
